A study of Mus musculus with 18 samples.

Results

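The comparison described here sets cells 32 h after synchronization against the same kind of cells at 20 h, which is 12 h apart in a 24 h cycle, across all genes. Its members are the 4 libraries of these time points among the 18 of the series, chosen by the time point in the labels. All were made from total RNA of NIH3T3, a mouse fibroblast line, which had been treated with 100 nM dexamethasone, a synthetic glucocorticoid, for 2 h. The dexamethasone medium was then replaced by normal culture medium, which set 0 h, and cells were harvested every 4 h up to 32 h with 2 libraries at each time. The 32 h group has replicates 1 and 2 and the 20 h group has replicates 1 and 2. Both groups had the same hormone treatment and medium change, and the series has no untreated or vehicle-treated group. Time since the hormone, time since the medium change and time of the cycle therefore cannot be told apart. The labels do not say whether replicates came from separate cultures, so p-values measure only the spread between these libraries, which may be technical.

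The 4 libraries held 30.1 to 33.5 M reads, within the 25.4 to 38.9 M of all 18. Of 21937 genes in the table, 12393 averaged 10 or more normalized reads over the 18 libraries (read counts divided by 1 factor per library) and were tested. All 11 fibroblast markers looked up were among them, and their summed level was 838421 and 886733 normalized reads at 32 h, against 820856 and 924235 at 20 h. Epcam, Krt19 and Esrp1 of epithelial cells, Cd3e of T cells, Kdr of endothelium, Lep of adipocytes, Myod1 and Myf5 of muscle precursors, and Rbfox3 and Olig2 of neural cells were at 0 in all 4 libraries. The 7 epithelial markers summed to 179 and 163 normalized reads at 32 h, against 170.0 and 171 at 20 h. The 7 leukocyte markers summed to 393 and 367 at 32 h, against 361 and 338 at 20 h. Their 3 tested members had log2 changes from -0.03 to 0.80, with 1 at an unadjusted p under 0.05 by limma. The 6 endothelial markers summed to 72.4 and 42.5 at 32 h, against 69.1 and 44.9 at 20 h. The 6 adipocyte markers summed to 34.8 and 63.7 at 32 h, against 44.5 and 31.5 at 20 h. The 6 neural markers summed to 311 and 277 normalized reads at 32 h, against 399.8 and 389.6 at 20 h. Most of that sum was the tubulin gene Tubb3, with 269 and 243 normalized reads at 32 h, against 372 and 366 at 20 h (log2 change -0.53; limma's adjusted p 0.0995, or 0.000659 with the replicate number as a term in the fit), while Snap25 was higher in both 32 h libraries, with 40.4 and 30.3 normalized reads at 32 h, against 25.4 and 19.1 at 20 h (log2 change 0.64, adjusted p 0.441 and 0.169 in the same fits). In bulk RNA, fewer cells that express a gene and less of its RNA per cell cannot be told apart.

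The circadian clock of mammalian cells is a transcriptional feedback loop. CLOCK and its partner BMAL1, the product of Arntl, bind E-box sequences and switch on the Per, Cry, Nr1d1 and Nr1d2 genes. PER and CRY proteins then hold CLOCK and BMAL1 back, while the nuclear receptors REV-ERB alpha (Nr1d1) and REV-ERB beta (Nr1d2) repress Arntl, Cry1 and Nfil3 through ROR elements. A pulse of glucocorticoid sets the clocks of cultured fibroblasts to a common phase.

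Of the 30 tested members of the clock lists, 4 passed the threshold of an adjusted p under 0.05, beside 20 of the 12393 genes tested (0.161%). The REV-ERB genes Nr1d1 and Nr1d2 fell to 0.335 and 0.295 of their 20 h means, and Arntl and Cry1 rose 1.53- and 2.06-fold. Whether these changes were linked was not tested. The promoters of these 4 genes are shown here because the genes carry the clock part of the comparison. Each is the 250 bases before and 50 bases after a transcription start in RefSeq (assembly GRCm38.p6, a later build than the mm9 of the deposited counts), written 5′ to 3′ on the strand of the gene. Capitals mark the clock motifs searched on both strands, which were the E-box CACGTG, its variant CACGTT (reverse complement AACGTG), the D-box TTATGTAA and the ROR core AGGTCA. Arntl has 2 listed starts in the table and the downstream one is shown, since the window of the other held none of these motifs.
Nr1d1, chr11:98775328-98775627, minus strand: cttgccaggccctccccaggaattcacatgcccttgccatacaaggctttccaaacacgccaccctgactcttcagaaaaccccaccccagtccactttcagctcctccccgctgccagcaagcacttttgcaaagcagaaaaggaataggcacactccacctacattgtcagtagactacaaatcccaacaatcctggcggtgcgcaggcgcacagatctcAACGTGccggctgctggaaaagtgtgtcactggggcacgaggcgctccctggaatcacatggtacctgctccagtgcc
Nr1d2, chr14:18239057-18239356, minus strand: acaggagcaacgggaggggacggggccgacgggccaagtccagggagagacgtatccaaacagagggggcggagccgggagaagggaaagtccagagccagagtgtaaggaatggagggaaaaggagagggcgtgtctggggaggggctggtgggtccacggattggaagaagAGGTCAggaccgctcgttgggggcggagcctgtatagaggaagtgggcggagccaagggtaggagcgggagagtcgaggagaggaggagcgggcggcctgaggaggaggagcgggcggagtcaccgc
Arntl, chr7:113207261-113207560, plus strand: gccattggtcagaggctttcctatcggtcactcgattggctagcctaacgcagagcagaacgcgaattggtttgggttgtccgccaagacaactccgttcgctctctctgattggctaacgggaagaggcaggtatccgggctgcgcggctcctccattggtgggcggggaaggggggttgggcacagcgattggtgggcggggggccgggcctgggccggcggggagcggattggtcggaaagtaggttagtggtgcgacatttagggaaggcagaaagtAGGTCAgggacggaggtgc
Cry1, chr10:85185005-85185304, minus strand: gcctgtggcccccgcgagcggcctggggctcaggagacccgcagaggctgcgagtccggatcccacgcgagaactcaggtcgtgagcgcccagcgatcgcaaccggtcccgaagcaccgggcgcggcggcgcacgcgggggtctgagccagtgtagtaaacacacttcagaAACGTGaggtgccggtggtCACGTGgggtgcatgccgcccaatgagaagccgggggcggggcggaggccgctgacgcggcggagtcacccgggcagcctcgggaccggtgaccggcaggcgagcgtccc

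In these windows Cry1 had CACGTG 60 bases and AACGTG 79 bases before its start, and Nr1d1 had AACGTG 28 bases before its start. The ROR core lay 77 bases before the Nr1d2 start and 31 bases after the Arntl start shown. No D-box letters were found in any of them. Among all 32851 promoters of the same length in the table, 7.15% held CACGTG, 4.68% held CACGTT, 0.938% held the D-box and 16.3% held the ROR core on either strand. These matches are descriptions of the letters and not evidence of binding.

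In what follows the 2 values of a time are replicate 1 and replicate 2. Libraries with the same replicate number deviated together across the time course, so results that change with it are also given from a fit with the replicate number as a term, called the block, which compares the times within a replicate. Nr1d2 had 369 and 358 normalized reads at 32 h, against 1225 and 1241 at 20 h. The 32 h values lay far below both 20 h values, and the replicates of each time were close together (log2 change -1.76, SE 0.108, adjusted p 1.84e-06; limma with Benjamini-Hochberg adjustment over 12393 genes). Nr1d1 had 651 and 548 normalized reads at 32 h, against 1642 and 1937 at 20 h, again without overlap (log2 change -1.58, SE 0.158, adjusted p 0.000568). Nr1d1 shares 263 of its 3077 annotated exon bases with Thra, a thyroid hormone receptor gene on the opposite strand, and the sources used here do not say whether reads were counted by strand. Thra itself had 1777 and 2109 normalized reads at 32 h, against 1438 and 1695 at 20 h (log2 change 0.31, adjusted p 0.38 without the block and 0.00197 with it), the opposite direction to Nr1d1. Nr1d1 and Nr1d2 were past the threshold in all 16 alternative analyses, including those that left out each of the 4 libraries.

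Among the ROR-element genes, Cry1, which encodes a cryptochrome repressor, had 718 and 837 normalized reads at 32 h, against 419 and 336 at 20 h (log2 change 1.05, SE 0.168, adjusted p 0.0248). Both 32 h libraries lay above both 20 h libraries. Arntl had 1148 and 1213 normalized reads at 32 h, against 776 and 768 at 20 h, a 1.53-fold higher mean with replicates that differed little (log2 change 0.61, SE 0.0881, adjusted p 0.0155). Neither gene stayed past the threshold when any 1 of the 4 libraries was left out, and Cry1 also missed it without a variance trend. Nfil3, a repressor that competes at D-boxes, had 2094 and 2168 normalized reads at 32 h, against 1399 and 1586 at 20 h and did not pass (log2 change 0.52, adjusted p 0.072 without the block and 2.75e-05 with it). Clock itself had 2408 and 2364 normalized reads at 32 h, against 2393 and 2191 at 20 h, which overlap, and a log2 change of 0.059 with an SE of 0.0613.

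Among the Period genes, Per3 had 398 and 405 normalized reads at 32 h, against 667 and 772 at 20 h, and its groups did not overlap although it missed the threshold (log2 change -0.84, adjusted p 0.0564 without the block and 0.000806 with it). Per2 had 816 and 1241 normalized reads at 32 h, against 609.8 and 664 at 20 h, with both 32 h values higher and the 32 h replicates far apart (log2 change 0.66, adjusted p 0.157 without the block and 0.00472 with it). Per1 had 3724 and 4444 normalized reads at 32 h, against 4121 and 4319 at 20 h, which overlap. Thus the Per3 and Per2 estimates had opposite signs in the same cells, and Per1 lay between them.

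The D-box activators are PAR bZIP factors, which drive clock output genes. Tef had 2078 and 2567 normalized reads at 32 h, against 2942 and 3300.0 at 20 h, with both 32 h libraries lower (log2 change -0.43, adjusted p 0.119 without the block and 0.00519 with it). Dbp was scarce, with 17.9 and 29.3 normalized reads at 32 h, against 34.5 and 50.6 at 20 h (log2 change -0.84, SE 0.461, adjusted p 0.433). Hlf had 1215 and 1765 normalized reads at 32 h, against 1020.5 and 1336 at 20 h, which overlap between the times, though each replicate was higher at 32 h than at 20 h (log2 change 0.33, adjusted p 0.699 without the block and 0.0229 with it). Of all 14 genes listed as E-box or D-box targets, none rose and 2 fell without the replicate block, and 2 rose and 4 fell with it, beside 4.94% higher and 5.54% lower over all genes with the block. Of the 5 tested ROR-element genes, 2 rose and none fell without the block, beside 0.0726% higher and 0.0888% lower over all genes. With the block 3 rose and 1 fell, beside the same 4.94% and 5.54%.

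The 11 other tested clock components, mostly kinases, ubiquitin ligase subunits and transcriptional partners, gave no call by limma, edgeR or DESeq2 without the block (3 had an unadjusted p under 0.05), and their log2 changes ranged from -0.21 to 0.36. The lowest was Wdr5, a chromatin scaffold, with 2054 and 1957 normalized reads at 32 h, against 2332 and 2315 at 20 h (log2 change -0.21, adjusted p 0.119 without the block and 0.00983 with it). The highest was Arntl2, a paralogue of Arntl, with 83.7 and 85 normalized reads at 32 h, against 62.7 and 68.8 at 20 h (log2 change 0.36, adjusted p 0.264 without the block and 0.154 with it). Bhlhe40, a repressor at E-boxes, had 678 and 689 normalized reads at 32 h, against 698 and 666 at 20 h, which overlap. The cold-inducible RNA-binding protein genes Cirbp and Rbm3 were higher in both 32 h libraries without passing (adjusted p 0.275 and 0.389).

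**Figure D1:**
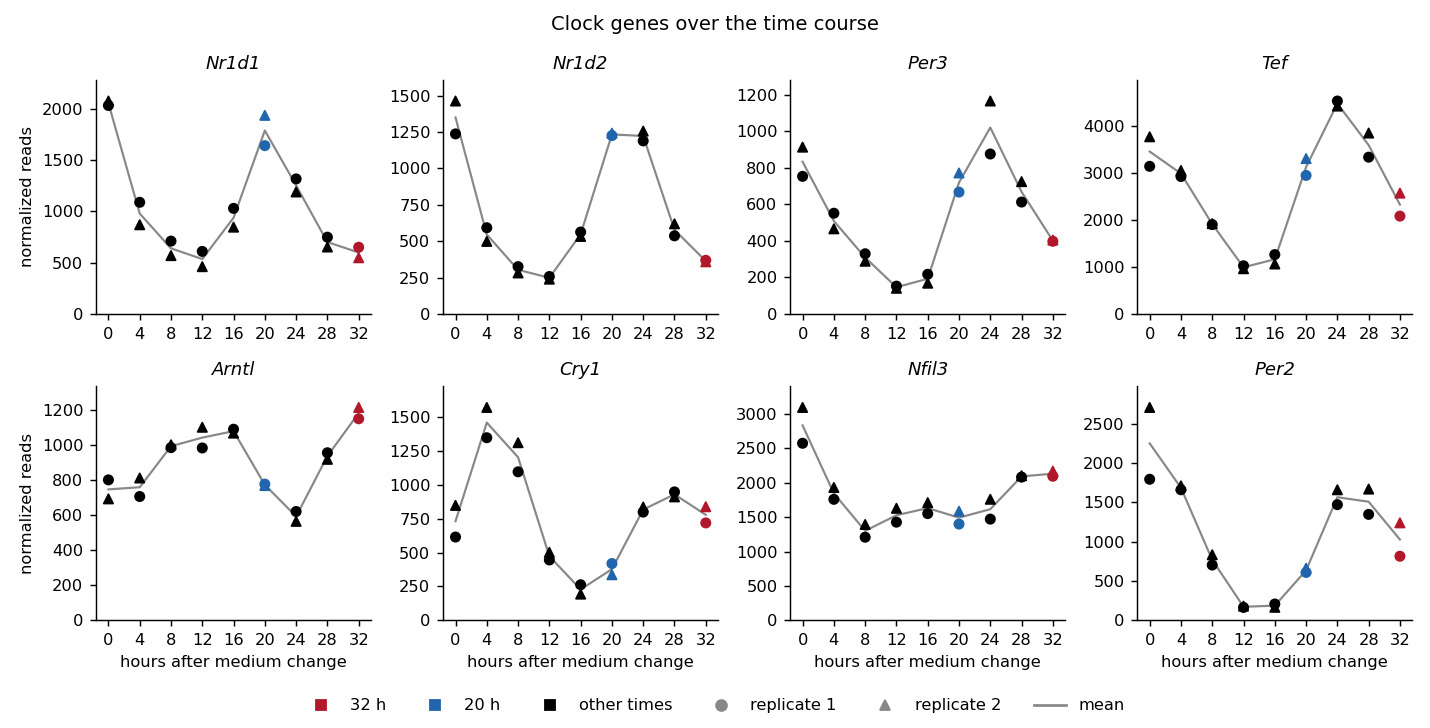
Normalized reads of 8 clock genes (y axes, starting at 0) against hours after the medium change (x axes), with 1 panel per gene, a circle for replicate 1, a triangle for replicate 2 and a line through the means. The 32 h points (red) of Nr1d1, Nr1d2, Per3 and Tef lie below the 20 h points (blue), and those of Arntl, Cry1, Nfil3 and Per2 lie above them.

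The time course places both times within the cycle of these genes, as means of 2 libraries. Over 20 h, 24 h, 28 h and 32 h, Nr1d1 stood at 1789.7, 1254, 701 and 599 normalized reads, and 20 h was its highest time after 0 h. Per3 had 719, 1021, 668 and 401 at these times, with its highest mean 4 h later than that of Nr1d1. Per2 had 637, 1567, 1509.5 and 1028. Its 20 h and 32 h libraries thus stood on either side of a high level at 24 h and 28 h, which the comparison of 32 h with 20 h alone does not show. Cry1 likewise had 378, 817, 928 and 778. Arntl had 772, 592, 936 and 1180.3, with its lowest mean at 24 h and the highest mean of its course at 32 h.

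Over all genes, 20 of the 12393 tested (0.161%) passed the threshold, of which 9 (0.0726%) were higher at 32 h and 11 (0.0888%) were lower. An unadjusted p under 0.05 was found in 1762. The median log2 change of all genes was 9.89e-06, and 4 of the 20 changed at least 2-fold. With the replicate number as a block, 1298 genes (10.5%) passed, 612 higher (4.94%) and 686 lower (5.54%), and these included all 20. Of changes of at least 1.5-fold, 103 were higher and 39 lower. The changes called with the block had a median size of 0.27 on the log2 scale, and 41 reached 2-fold. Both 32 h libraries were above both 20 h libraries in 2952 genes (23.8%) and below in 3196 (25.8%).

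The count without the block depended on every library. Leaving out 20 h replicate 1 gave 3 calls, and leaving out 20 h replicate 2, 32 h replicate 1 or 32 h replicate 2 gave 2 calls each. Nr1d1 and Nr1d2 were called each time. Scaling the libraries to equal totals gave 13 higher and 10 lower genes. Under DESeq2 on the recovered whole reads 225 genes passed, and under edgeR's quasi-likelihood test 26 passed.

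**Figure D2:**
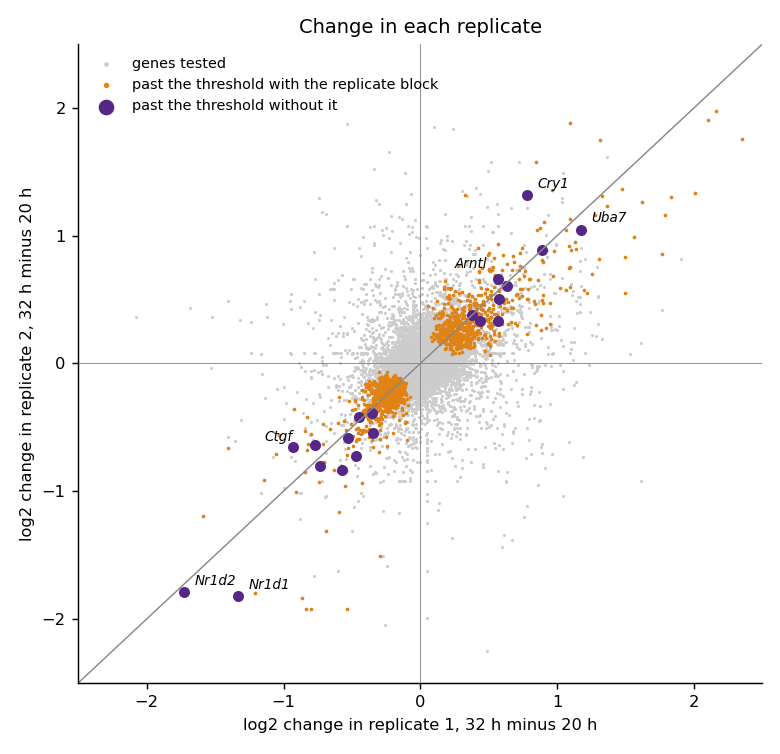
Each dot is 1 of 12393 genes, with its log2 change from 20 h to 32 h in replicate 1 on the x axis and in replicate 2 on the y axis, and the diagonal marks equal change; 4 genes lie outside the axes. The 20 genes past the threshold without the block (purple) and the 1298 past it with the block (orange) sit mostly in the upper right and lower left. Calls favour genes whose replicates changed alike, so this position partly follows from the selection.

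Besides Arntl and Cry1, 7 genes rose. Uba7, which encodes the activating enzyme for the ubiquitin-like protein ISG15, had 161 and 161 normalized reads at 32 h, against 70.9 and 77.3 at 20 h, and the values of each time were tightly grouped (log2 change 1.11, SE 0.168, adjusted p 0.0188). AI429214, a protein-coding gene in RefSeq with no role named here, had 259 and 252 normalized reads at 32 h, against 139 and 136 at 20 h (log2 change 0.89, SE 0.154, adjusted p 0.0353). Pmvk, the phosphomevalonate kinase of cholesterol synthesis, had 477 and 439.9 normalized reads at 32 h, against 307 and 288 at 20 h (log2 change 0.62, SE 0.0903, adjusted p 0.0155). Lss, the lanosterol synthase of the same pathway, had 1307 and 1197 normalized reads at 32 h, against 882 and 950.1 at 20 h (log2 change 0.45, SE 0.0765, adjusted p 0.0309). Thbs2, a matricellular thrombospondin, had 9820.1 and 10476 normalized reads at 32 h, against 6597 and 7393 at 20 h (log2 change 0.54, SE 0.0828, adjusted p 0.0188). The lipid transport genes Vps13c and Vps13a had the smallest changes of the group, with log2 changes of 0.38 and 0.38. Vps13c had 2189 and 2173 normalized reads at 32 h, against 1621 and 1728 at 20 h, and Vps13a had 2223 and 2164 normalized reads at 32 h, against 1710.2 and 1665 at 20 h. In each of the 7 genes both 32 h libraries lay above both 20 h libraries, beside 23.8% of all genes. Such a separation was a condition for naming a called gene by its change. Lss and Vps13a overlap a gene on the opposite strand in the annotation used here (381 and 264 exon bases), and Uba7 shares 233 exon bases with an annotated gene on its own strand.

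Besides the REV-ERB genes, 9 genes fell, of which 7 are described here. Crispld2, which encodes a secreted protein, had 181 and 203 normalized reads at 32 h, against 345 and 321 at 20 h (log2 change -0.79, SE 0.143, adjusted p 0.0426). Ctgf, a matricellular growth factor and YAP target, had 13761 and 13081 normalized reads at 32 h, against 23526 and 20320.5 at 20 h (log2 change -0.70, SE 0.12, adjusted p 0.0309), and it shares 665 annotated exon bases with a transcript on the opposite strand. These genes of secreted products were 1.73- and 1.63-fold lower at 32 h in the group means. Acta1, the skeletal muscle actin and an SRF target, had 968 and 953 normalized reads at 32 h, against 1438 and 1699.7 at 20 h (log2 change -0.70, SE 0.119, adjusted p 0.0309). The 6 skeletal muscle markers summed to 1057 and 1040 normalized reads at 32 h, against 1501 and 1750 at 20 h, most of it Acta1, while Myod1 and Myf5 were at 0. The only other tested member, the desmin gene Des, lay the other way, with 86.5 and 86 normalized reads at 32 h, against 60.9 and 46.8 at 20 h (log2 change 0.68, adjusted p 0.19 without the block and 0.025 with it).

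The other 4 described were intracellular. Ccdc109b, now named Mcub, encodes a subunit of the mitochondrial calcium uniporter that dampens it, and had 179.6 and 171 normalized reads at 32 h, against 259.9 and 257 at 20 h (log2 change -0.56, SE 0.0939, adjusted p 0.0309). Tcf19, a gene linked to the G1/S transition, had 1285 and 1282 normalized reads at 32 h, against 1638 and 1872 at 20 h (log2 change -0.45, SE 0.0745, adjusted p 0.0309). Dctpp1, which hydrolyses dCTP, had 553 and 581 normalized reads at 32 h, against 755 and 778 at 20 h (log2 change -0.43, SE 0.0665, adjusted p 0.0188). Taldo1, the transaldolase of the pentose phosphate pathway, had 4081 and 3924 normalized reads at 32 h, against 5203 and 5142 at 20 h (log2 change -0.37, SE 0.0665, adjusted p 0.0426). In each of these 4 genes both 32 h libraries lay below both 20 h libraries, which was again a condition for naming them. Over all genes 25.8% did so.

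**Figure D3:**
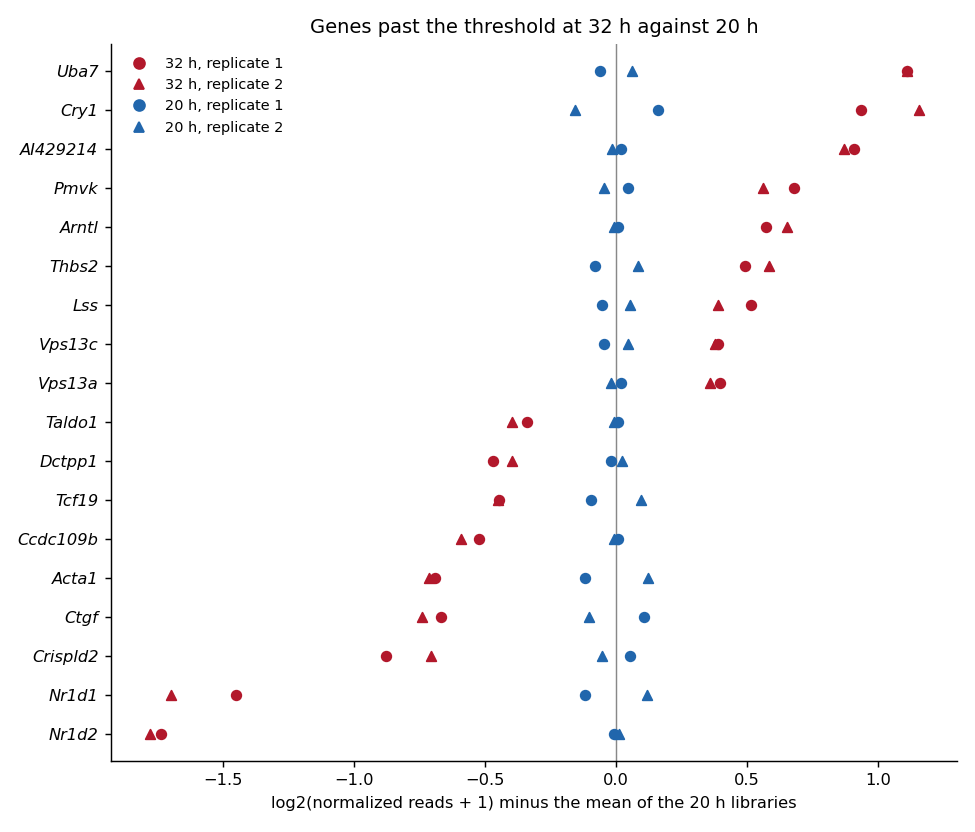
18 of the 20 genes past the threshold, from the highest to the lowest change, with the log2 level of each library minus the mean of the 20 h libraries on the x axis (red for 32 h, blue for 20 h; circles are replicate 1 and triangles replicate 2). In every row both red points lie on one side of both blue points, as for 23.8% (above) and 25.8% (below) of all genes. Nr1d2 and Nr1d1 lie farthest left.

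The interval holds 2 intermediate times, which show how the change was spread. These steps of 4 h share libraries with each other and with the whole interval. Over the 3 steps in order, the log2 changes of Uba7 were 0.43, 0.35 and 0.33, those of Ctgf -0.16, -0.39 and -0.16, and those of Cry1 1.12, 0.18 and -0.26. The change of Cry1 thus lay in the step after 20 h, while that of Uba7 was spread over the interval. The step of 24 h against 20 h gave 0 calls by limma and 0 by edgeR and 3 by DESeq2, with 384 genes at an unadjusted p under 0.05. The step of 32 h against 28 h likewise gave 0, 0 and 3, with 118 at an unadjusted p under 0.05. Between them, 28 h against 24 h gave 2 calls (0.0161%), which were Arntl, higher by a log2 change of 0.66 (0.00807% of genes were called higher; adjusted p 0.017), and Nr1d2, with -1.08 (0.00807% called lower; adjusted p 0.00102). Nr1d2 thus held its level at 24 h, with 1222 normalized reads against 1233 at 20 h, then had 578 at 28 h and 363 at 32 h. With the replicate block the 3 steps gave 5, 10 and 2 calls. Leaving out 24 h replicate 1, 24 h replicate 2 or 28 h replicate 2 brought the middle step to 1 call.

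With the replicate block, genes with larger changes than most of the 20 were also past the threshold. Named here, after their values were seen, are 4 higher and 4 lower with the largest changes, a mean of at least 50 over the 4 libraries and an identified product, other than clock genes. Gdpd2, a glycerophosphodiesterase, had 117 and 213 normalized reads at 32 h, against 26.4 and 56.3 at 20 h (log2 change 2.00, adjusted p 0.124 without the block and 8.87e-06 with it). Dpep1, a membrane dipeptidase, had 134 and 212 normalized reads at 32 h, against 52.7 and 85 at 20 h (log2 change 1.32, adjusted p 0.287 without the block and 0.000307 with it). In both genes replicate 2 was above replicate 1 at each time, and each replicate was higher at 32 h. The same held for the scavenger receptor gene Scara5, which had 128 and 291 normalized reads at 32 h, against 49.1 and 123 at 20 h (log2 change 1.30, adjusted p 0.272 without the block and 0.000434 with it). Agt, the angiotensinogen gene, had 49.8 and 102 normalized reads at 32 h, against 17.3 and 39.1 at 20 h (log2 change 1.42, adjusted p 0.288 without the block and 0.000303 with it).

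On the lower side, Serpinb2, the plasminogen activator inhibitor PAI-2, had 56.4 and 44.5 normalized reads at 32 h, against 172 and 103 at 20 h (log2 change -1.39, adjusted p 0.153 without the block and 1.97e-05 with it). Ppbp, a CXC chemokine gene, had 2427 and 2089 normalized reads at 32 h, against 5371 and 3932 at 20 h (log2 change -1.03, adjusted p 0.0809 without the block and 1.48e-09 with it). In both genes replicate 1 was above replicate 2 at each time. Csf3, the granulocyte colony-stimulating factor, had 50.8 and 47.5 normalized reads at 32 h, against 77.2 and 108 at 20 h (log2 change -0.88, adjusted p 0.114 without the block and 0.00786 with it). Btn1a1, a butyrophilin gene, had 59.2 and 26.3 normalized reads at 32 h, against 96.3 and 66.8 at 20 h (log2 change -1.003, adjusted p 0.422 without the block and 0.00983 with it). In each of these 4 genes both 32 h values were below both 20 h values.

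Genes of sterol synthesis, which SREBP2 controls when cells lack cholesterol, stood higher at 32 h. Of 19 tested, 2 rose without the block, 15 rose with it and none fell in either, beside 4.94% higher over all genes with the block. Their median log2 change was 0.34, against 9.89e-06 over all genes. In 17 of the 19 both 32 h libraries lay above both 20 h libraries, beside 23.8% of all genes. Fdps, the farnesyl diphosphate synthase, had 3688 and 3794 normalized reads at 32 h, against 2594 and 2968 at 20 h (log2 change 0.43, adjusted p 0.0784 without the block and 0.000431 with it). The highest log2 change of the list was the 0.62 of Pmvk. Of 11 fatty acid synthesis genes, 1 rose with the block, a share near that of all genes, and their median was 0.07.

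Genes tied to quiescence and forkhead (FOXO) transcription factors were also mostly higher. Of 18 tested, none passed by limma without the block (4 had an unadjusted p under 0.05, and edgeR called 0 and DESeq2 2), and with it 9 rose and none fell, beside 4.94% higher and 5.54% lower over all genes. The median log2 change was 0.24. Sesn3, a sestrin that restrains mTORC1, had 633 and 833 normalized reads at 32 h, against 381 and 457 at 20 h (log2 change 0.80, adjusted p 0.171 without the block and 1.23e-05 with it). Ccng2, a cyclin that slows the cell cycle, had 395 and 486 normalized reads at 32 h, against 254 and 323 at 20 h (log2 change 0.61, adjusted p 0.26 without the block and 0.00159 with it). Pdgfrb, the PDGF receptor beta, had 12671 and 13545 normalized reads at 32 h, against 9857 and 11416 at 20 h, with no overlap (log2 change 0.30, adjusted p 0.0704 without the block and 0.000509 with it). Trib2, a pseudokinase gene, had 3044 and 3767 normalized reads at 32 h, against 2215 and 2819 at 20 h (log2 change 0.44, adjusted p 0.374 without the block and 0.000365 with it), where 32 h lay above 20 h in each replicate. Of 13 interferon-stimulated genes none passed by limma, edgeR or DESeq2 without the block (1 had an unadjusted p under 0.05) and 1 rose with it, a share near the 4.94% of all genes, with a median of 0.24.

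Cell cycle genes stood slightly lower at 32 h. Of 28 mitosis genes none passed by limma without the block (18 had an unadjusted p under 0.05, and edgeR called 0 and DESeq2 7 lower), and with it none rose and 15 fell, beside 5.54% lower over all genes. The median was -0.16 and both 32 h libraries lay below both 20 h libraries in 26, beside 25.8% of all genes. Kif23, a kinesin of cytokinesis, had 3734 and 3453 normalized reads at 32 h, against 4597 and 4319 at 20 h (log2 change -0.31, adjusted p 0.122 without the block and 0.000332 with it). Prc1, which bundles the spindle midzone, had 7193 and 7120.4 normalized reads at 32 h, against 8724 and 8726 at 20 h (log2 change -0.29, adjusted p 0.0649 without the block and 0.00135 with it). Of 28 DNA replication genes none passed by limma without the block, with 10 at an unadjusted p under 0.05. Without the block edgeR called 0 of them and DESeq2 4 lower. With the block 8 fell, beside the same 5.54%. Their median was -0.14, and both 32 h libraries lay below both 20 h libraries in 24, beside the same 25.8%. Rrm1, the large subunit of ribonucleotide reductase, had 10650.4 and 10396 normalized reads at 32 h, against 12719 and 12187 at 20 h (log2 change -0.24, adjusted p 0.0675 without the block and 0.00149 with it). The decrease of Kif23 was 1.24-fold and that of Rrm1 1.18-fold.

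Of 20 ribosome biogenesis genes none passed by limma without the block (9 had an unadjusted p under 0.05, and edgeR called 0 and DESeq2 1 lower) and 11 fell with it, beside 5.54% lower over all genes, with a median of -0.17. Rrp9, a component of the U3 small nucleolar particle, had 1432 and 1263 normalized reads at 32 h, against 1747 and 1691 at 20 h (log2 change -0.35, adjusted p 0.119 without the block and 0.000332 with it). Nop56, a box C/D snoRNP core protein, had 14346 and 13694 normalized reads at 32 h, against 17330.1 and 15741 at 20 h (log2 change -0.24, adjusted p 0.233 without the block and 0.000991 with it). The 23 cytosolic ribosomal protein genes gave no call by limma with or without the block, by edgeR or by DESeq2 (0 had an unadjusted p under 0.05), and 22 of them had a log2 change above 0, with a median of 0.09.

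Among 20 targets of SRF, MRTF and YAP, the factors that follow actin dynamics and cell spreading, 1 fell without the block and 7 with it, and none rose, beside 0.0888% and 5.54% lower over all genes. Beside Ctgf, Ankrd1 had 2137 and 1821 normalized reads at 32 h, against 2903 and 2621 at 20 h (log2 change -0.48, adjusted p 0.12 without the block and 0.00227 with it), and Tagln, the smooth muscle protein transgelin, had 29884 and 35698 normalized reads at 32 h, against 40299 and 47830.2 at 20 h (log2 change -0.43, adjusted p 0.225 without the block and 0.00161 with it). The actin genes Actb and Actg1 belong to the same list and had log2 changes of -0.06 and -0.03. The list's median was -0.09. Of 30 extracellular matrix genes 1 rose (Thbs2) and 1 fell without the block, and 6 rose and 4 fell with it, beside 4.94% higher and 5.54% lower over all genes with the block.

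**Figure D4:**
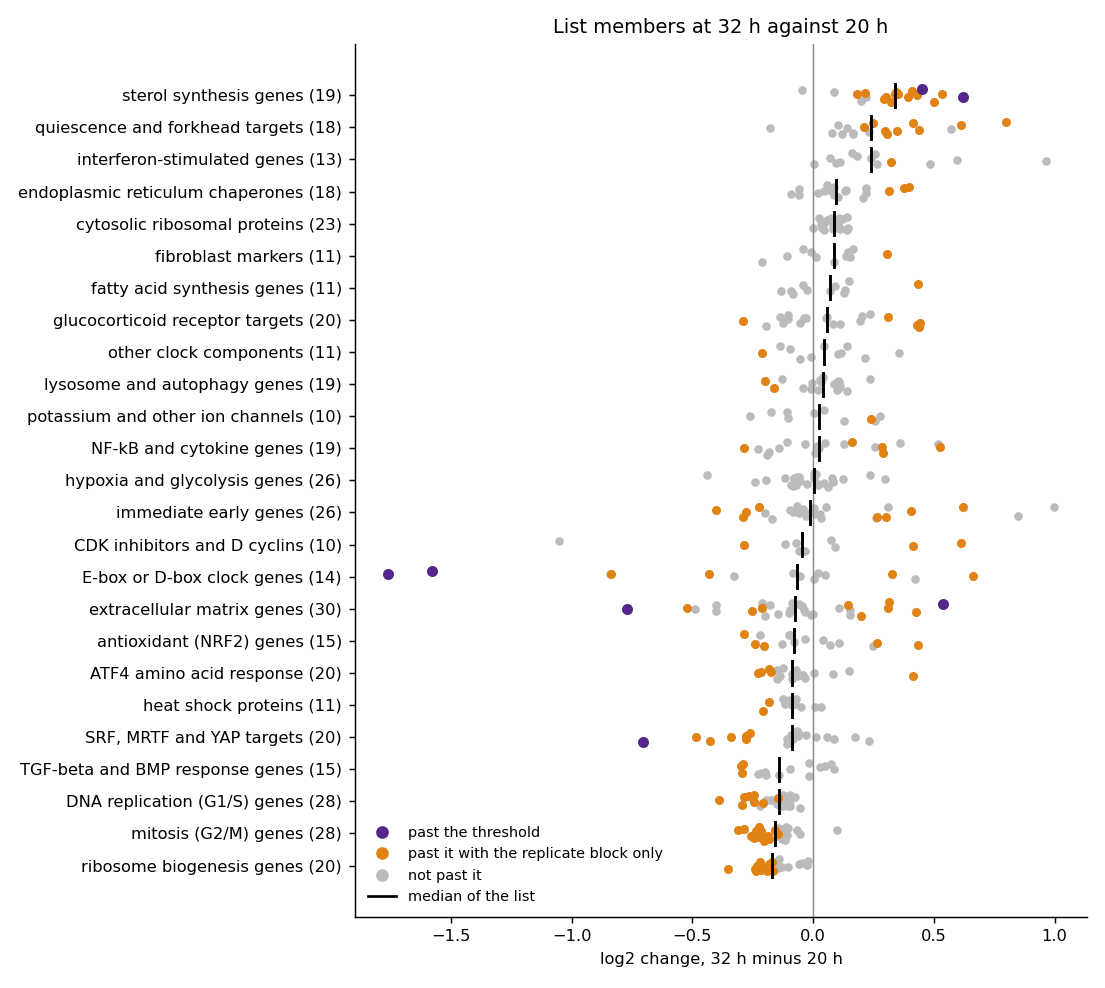
Log2 change (x axis, 32 h minus 20 h) of each tested member of the lists with at least 10 tested members, with the number tested after each name and the list's median as a black bar. Nearly all sterol synthesis genes lie right of 0, and nearly all mitosis, DNA replication and ribosome biogenesis genes lie left of 0, most of them by under 0.5.

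Since 8 h and 20 h are also 12 h apart, each gene's change over the later interval can be set against its change over the earlier one. This turn at 20 h, (32 h minus 20 h) minus (20 h minus 8 h), is near 0 for a steady drift and differs from it where the course bends at 20 h. It passed the threshold in 298 of 12393 genes (2.4%), 135 positive (1.09%) and 163 negative (1.32%), and in 1333 (10.8%) with the replicate block. It uses the same 20 h and 32 h libraries as the comparison above and is not independent of it. In 266 of the 298 genes the changes before and after 20 h had opposite signs. The change after 20 h was the larger in 29 of these 266. Of the 298, 10 were also called at 32 h against 20 h. Leaving out 8 h replicate 1 gave 184 calls and leaving out 8 h replicate 2 gave 167. Without 20 h replicate 1 there were 66, without 20 h replicate 2 there were 28, without 32 h replicate 1 there were 121 and without 32 h replicate 2 there were 113.

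Among called genes averaging at least 50 normalized reads over 8 h, 20 h and 32 h, the REV-ERB genes had the most negative differences. In the order 8 h, 20 h, 32 h, Nr1d2 averaged 303, 1233 and 363 normalized reads (difference -3.78 on the log2 scale, adjusted p 9.89e-08), so the levels at 8 h and 32 h were close. Nr1d1 averaged 639.9, 1789.7 and 599 at the same times. Cry1 averaged 1202, 378 and 778, a positive difference of 2.72 (adjusted p 0.000653), with a lower level at 32 h than at 8 h. By contrast Ctgf averaged 48226, 21923 and 13421, and Crispld2 526, 333 and 192. These genes were lower at each later time, and their differences did not pass the threshold (adjusted p 0.34 and 0.855). Uba7 averaged 71, 74.1 and 161, so its rise lay in the later interval, though its difference missed the threshold (adjusted p 0.0783).

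Outside the clock, among lists with at least 10 tested members, the largest shares were in those of endoplasmic reticulum chaperones and mitosis genes. Of 28 mitosis genes, 23 passed, all negative, and of 18 chaperone genes, 15 passed, all positive. Over all genes, 1.32% passed as negative and 1.09% as positive. Both tested epithelial markers, Krt8 and Krt18, also passed with positive values. Hspa5, the chaperone BiP, averaged 84038, 26267 and 34121 normalized reads at these 3 times, and its 2 libraries were 34667 and 33575 at 32 h, against 26440.0 and 26094 at 20 h. Most of its difference of 2.05 therefore came from the interval before 20 h. Prc1 averaged 6579.8, 8725 and 7157, and Kif23 3404, 4458 and 3593. For both genes, which were named for their fall from 20 h to 32 h with the block, 20 h was higher than both times around it. Over the 28 mitosis genes the median difference was -0.60, and the median change from 20 h to 32 h was -0.16. Dctpp1 averaged 537, 767 and 567, and Pmvk 424, 298 and 458, the same shape in opposite directions.

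**Figure D5:**
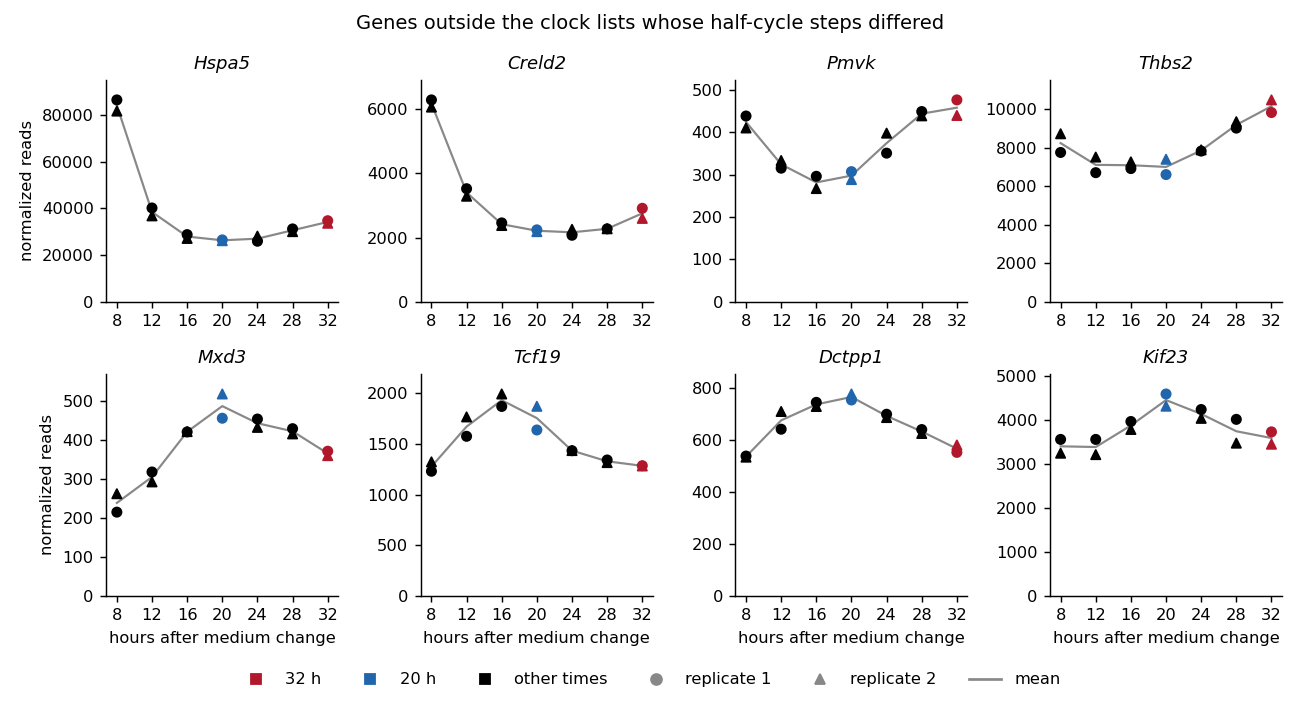
Normalized reads (y axes, starting at 0) from 8 h to 32 h (x axes) for 8 genes outside the clock lists whose changes over the intervals before and after 20 h differed, with red for 32 h, blue for 20 h, circles for replicate 1 and triangles for replicate 2. Hspa5 and Creld2 are highest at 8 h and slightly higher at 32 h than at 20 h, Pmvk and Thbs2 are higher at 32 h than at 20 h, and Mxd3, Tcf19, Dctpp1 and Kif23 are lower at 32 h than at 20 h.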

How the data were processed

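RNA was sequenced from 18 NIH3T3 libraries, and the deposited table gives 1 signal value per gene and library. The values are read counts scaled by the authors with a single factor for each library and kept to 2 decimals; all values in all libraries came out whole within 0.02 reads (largest distance 0.00611), so they are called normalized reads here. Per the submitters' processing notes TopHat, HTSeq, DESeq and the build mm9 were used; versions, roles, the annotation and the strand setting are not given in the sources used here.

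Genes with a mean of at least 10 over the 18 libraries were fitted on log2(value + 1) with limma 3.58.1 in R 4.3.3. The fit used a variance trend, all 18 libraries, the 9 time means and no other term, with a 2-sided Benjamini-Hochberg threshold of 0.05. Fold changes on the log2(value + 1) scale understate those of scarce genes. Columns of 32 h, 20 h, 8 h, 24 h and 28 h were contrasted; edgeR 4.0.16 and DESeq2 1.42.0 were run on the whole reads recovered from the steps.

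Replicate numbers were tested as pairs. Deviations from the time means correlated above 0.1 in 36 of 36 pairs of times (0.23 to 0.50, median 0.35, and 0.31 between 32 h and 20 h), so the numbers pair the libraries and the fit with a replicate block is given beside the results it changes. The pairing rests on these data, since the labels name no shared source.

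Named are the members of the 3 clock lists and the cold-inducible list, up to 12 called genes in each direction, up to 4 called members of other lists and the 6 highest and 6 lowest differences between the intervals, each with a mean of at least 50 where chosen by size. The up to 12 called genes in each direction also needed both 32 h libraries on the same side of both 20 h libraries. The comparison, the members and the 34 gene lists were chosen with earlier results of these data known. List members named for their values with the block, list extremes and the genes named from the blocked fit were added after their values were seen. Exon overlaps come from GENCODE vM21 and promoters from RefSeq, matched by symbol (4 of 4 genes). Some genes that entered these fits and counts are not reported by name here. Of 542 list genes, 4 had no row and were not analysed here.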

Additional observations from a re-analysis of the deposited data

Results flagged for a closer look

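For 25 of the 72 genes named by rule and reported here, beside 2.4% of all genes, the change from 20 h to 32 h differed from the change from 8 h to 20 h by the limma test of that difference, (32 h minus 20 h) minus (20 h minus 8 h), adjusted over 12393 genes. It was negative in 13 and positive in 12, and all values here are log2 differences. Part of the 72 were named for the size of this very difference, so their count is partly fixed by that choice.

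Among clock genes the values were -3.78 for Nr1d2, -3.06 for Nr1d1, -2.05 for Per3 and -1.14 for Tef, with 0.78 for Bhlhe40, 0.97 for Arntl and 2.72 for Cry1. Other genes with their highest mean at 20 h among these 3 times had -1.44 for Mxd3, a MYC antagonist, -1.28 for Ankle1, -0.95 for Dctpp1 and -0.90 for Tcf19. Those named from the mitosis and DNA replication lists had -0.70 for Kif23, -0.69 for Prc1, -0.62 for Foxm1, -0.56 for Birc5 and -0.45 for Rrm1.

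Positive values outside the clock were 2.05 for Hspa5, 1.80 for Creld2 and 1.70 for Sdf2l1, which serve protein folding in the endoplasmic reticulum. They were 1.13 for Pmvk and 0.59 for Lss of sterol synthesis, 0.77 for Thbs2, 0.49 for Vps13a, 1.90 for Apol8 and 1.54 for Krt8. Krt8 averaged 473, 154 and 148 normalized reads at these 3 times, so its levels at 20 h and 32 h were close.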

How the results depend on the processing

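The replicate block moved the count at 32 h against 20 h to 1298 genes (612 higher, 686 lower), and edgeR with the block, added after the data were seen, gave 1391 (687 and 704). The block moved the turn at 20 h from 298 genes to 1333, or 1393 with edgeR, and 1081 when fitted on its own time points only. For the steps the block gave 5, 10 and 2 calls, and edgeR with it 8, 12 and 2.

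Other settings moved the 20 calls at 32 h against 20 h to 13 without a filter (6 lower), 11 without a variance trend (5 higher, 6 lower), 225 with DESeq2 (108 and 117), 37 with only the times compared (18 and 19) and 12 with a minimum fold of 1.5 (5 and 7). Quantile normalization gave 15 higher genes and edgeR 14. The turn at 20 h gave 473 with DESeq2 and 115 with only its times. The step of 24 h against 20 h gave 2 calls with quantile normalization, 3 with DESeq2 and 2 with only its times. The step of 28 h against 24 h gave 1 without a trend and 1 with only its times, and 32 h against 28 h gave 3 with DESeq2. The cause was not tested.

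Leaving out each library gave 2 to 3 calls at 32 h against 20 h, with 0 higher and 2 to 3 lower, 28 to 184 for the turn at 20 h and 1 to 2 for the step of 28 h against 24 h. A lone library was then assumed to vary like the other times. Of the 20 called genes, 18 lost the threshold in at least 1 of 16 alternatives and none changed sign; of the other 56 named genes, 32 passed it in at least 1.

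Sign changes were seen in genes without a call. They were Bhlhe40 (-0.00248) and Bhlhe41 (-0.0898) under quantile normalization, and Csnk1d under equal totals (0.00426) and quantile normalization (0.00148). With 1 library left out the log2 change ranged from -0.180 to 0.0749 for Per1, -0.0305 to 0.0379 for Bhlhe40, -0.298 to 0.339 for Bhlhe41, -0.0174 to 0.113 for Usp2, -0.00396 to 0.123 for Clock, -0.00362 to 0.284 for Cry2, -0.0306 to 0.0101 for Csnk1d, -0.119 to 0.00735 for Timeless and -0.132 to 0.0183 for Krt8.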

Other observations

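Further lists gave no call by limma or edgeR without the replicate block, and the genes named here were chosen after their values were seen. Over all genes, 4.94% rose and 5.54% fell with the block, and several of the counts here, such as those of the lysosome, NRF2 and NF-kB lists, rest on 1 to 4 genes. Those with an unadjusted p under 0.05 were 3 glucocorticoid receptor targets, 9 immediate early genes, 4 cyclin D and CDK inhibitor genes, 4 ATF4 genes, 4 NRF2 genes, 3 TGF-beta and BMP genes, 3 heat shock genes, 2 lysosome genes and 5 NF-kB and cytokine genes, and DESeq2 called 2 immediate early genes and 1 NRF2 gene. Of 20 glucocorticoid receptor targets, 4 rose and 1 fell with the block, with a median log2 change of 0.06. Errfi1, a feedback inhibitor of the EGF receptor, had 6585 and 7984 normalized reads at 32 h, against 5179 and 5532 at 20 h (log2 change 0.44, adjusted p 0.164 without the replicate block and 4.01e-05 with it). Cebpd, a C/EBP transcription factor, had 1157 and 1535 normalized reads at 32 h, against 826 and 1182 at 20 h (log2 change 0.43, adjusted p 0.394 without the replicate block and 0.000434 with it). Pdk4, which restrains pyruvate dehydrogenase, had 2400.5 and 3082 normalized reads at 32 h, against 1777 and 2249.7 at 20 h (log2 change 0.44, adjusted p 0.44 without the replicate block and 0.00142 with it). Gadd45g, a stress-response gene, had 1256 and 1210.5 normalized reads at 32 h, against 1448 and 1573 at 20 h (log2 change -0.29, adjusted p 0.188 without the replicate block and 0.0256 with it).

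Of 26 immediate early genes 4 rose and 4 fell with the block, with a median of -0.01. Egr2, a zinc finger factor, had 259.5 and 285 normalized reads at 32 h, against 177 and 176 at 20 h (log2 change 0.62, adjusted p 0.0665 without the replicate block and 0.000929 with it), while Fosl1, an AP-1 subunit, had 402 and 315 normalized reads at 32 h, against 539.8 and 411 at 20 h (log2 change -0.40, adjusted p 0.428 without the replicate block and 0.00502 with it) and Myc had 4975 and 4552 normalized reads at 32 h, against 6025 and 5513 at 20 h (log2 change -0.28, adjusted p 0.292 without the replicate block and 0.00231 with it). Of 10 cyclin D and CDK inhibitor genes 2 rose and 1 fell with the block. Cdkn1b, the inhibitor p27, had 1273 and 1353 normalized reads at 32 h, against 1047 and 925 at 20 h (log2 change 0.41, adjusted p 0.143 without the replicate block and 0.00424 with it), and Ccnd1, cyclin D1, had 9964 and 8908 normalized reads at 32 h, against 12501 and 10584 at 20 h (log2 change -0.29, adjusted p 0.213 without the replicate block and 0.0178 with it). Of 20 ATF4 amino acid response genes 1 rose and 4 fell with the block, and of 15 NRF2 genes 2 rose and 3 fell. Of 15 TGF-beta and BMP response genes 3 fell, of 11 heat shock genes 2 fell and of 19 lysosome genes 2 fell. Of 19 NF-kB and cytokine genes 4 rose and 1 fell. For that list the share that fell was near the 5.54% of all genes, and the share that rose was above their 4.94%. The 26 hypoxia and glycolysis genes gave no call with the block either, with 1 at an unadjusted p under 0.05 and 0 by edgeR and DESeq2.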
